A study of Mus musculus with 6 samples.

Results

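The baseline transcriptomes of 2 cultured mouse endothelial cell (EC) lines were compared, the embryonic yolk sac blood ECs (Cont BECs) and the embryonic dermal cells labelled lymphatic ECs (Cont LECs). Every gene with 30 or more raw reads in the 2 libraries together was included, with the ribosomal RNA precursor Rn45s left out, which gave 12079 of the 24421 genes in the table. At least 1 read in the pair was found for 16219 genes. At the edge of this rule, 29 genes had exactly 30 reads and 31 genes had exactly 29.

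Both lines are labelled wild type, although the yolk sac line is known to carry a human copy of the gene Fes. The methods name no mouse strain for either line. Both were transduced with empty lentivirus as controls for Dot1l overexpression and sorted for EGFP. The methods do not say whether the empty virus carried dead Cas9 fused to an activator, without guides to the Dot1l promoter. The cells of 2 to 3 flasks made 1 library per line, so no replicate exists and no test of a difference against replicate spread was possible. The same lines carrying dead Cas9 fused to an activator, with guides to the Dot1l promoter, gave 1 further library each (OE-BECs and OE-LECs). These are not replicates of the controls, because Dot1l was manipulated, but they share no library with the control pair and are given as a second look at the difference between the lines. The skin library of E15.5 Tie2-Cre(-); Dot1l 2f/2f embryos (skin Cont BECs), made from pooled RNA of cells selected as Lyve1-negative, served only as a reference for marker genes, and it held 9105 reads of Lyve1 against that selection. Line, the human Fes copy, tissue of origin, supplier, culture and library differ together between the 2 cultures and cannot be told apart. A strain difference, if there is one, cannot be told apart from them either.

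Blood ECs line arteries, capillaries and veins, and lymphatic ECs arise mainly from venous ECs under the transcription factor Prox1, which is needed to set up and keep the lymphatic fate. Both types share junction and receptor genes such as Cdh5 and Pecam1. Lymphatic ECs add Prox1, the mucin Pdpn, the hyaluronan receptor Lyve1, the VEGF-C receptor Flt4 and the chemokine Ccl21a. Yolk sac vessels are among the earliest vessels of the embryo.

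The libraries held 16640629 (Cont BECs) and 26103219 (Cont LECs) reads outside Rn45s, which took a further 5.91% and 0.0534% of all reads. Values are counts per 1000000 reads of these totals (CPM), and 3 reads, the floor used here, equal 0.180 and 0.115 CPM. Ratios are Cont LECs over Cont BECs on the log2 scale, so negative values are higher in Cont BECs. Each has an exact 95% interval for counting error, which covers neither culture nor library variation. A gene was called when the libraries differed by more than 3-fold, the fold of the study's own rule.

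The endothelial label held for both cultures, whereas the lymphatic label did not hold for its defining markers. All 23 pan-endothelial genes passed the read minimum, with a summed level of 12046 CPM in Cont BECs and 9864 CPM in Cont LECs. The cadherin Cdh5 had 58965 and 50837 reads and the adhesion molecule Pecam1 had 19586 and 31002. The nitric oxide synthase Nos3, which is not in that list, had 28916 and 46714. Of the 16 genes in the lymphatic list, 5 had no read in either culture, namely Prox1, Pdpn, Ccl21a, Tbx1 and Klhl4. A count of 0 allows at most the floor of 0.115 CPM in Cont LECs. Mmrn1 had 5 and 0 reads and Reln had 2 and 1. The same table can hold such reads, since the skin Cont BECs had 1304 reads of Prox1, 167 of Pdpn, 4125 of Reln and 7399 of Mmrn1. The name Cont LECs is therefore used below only as the label of the library.

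**Figure D1:**
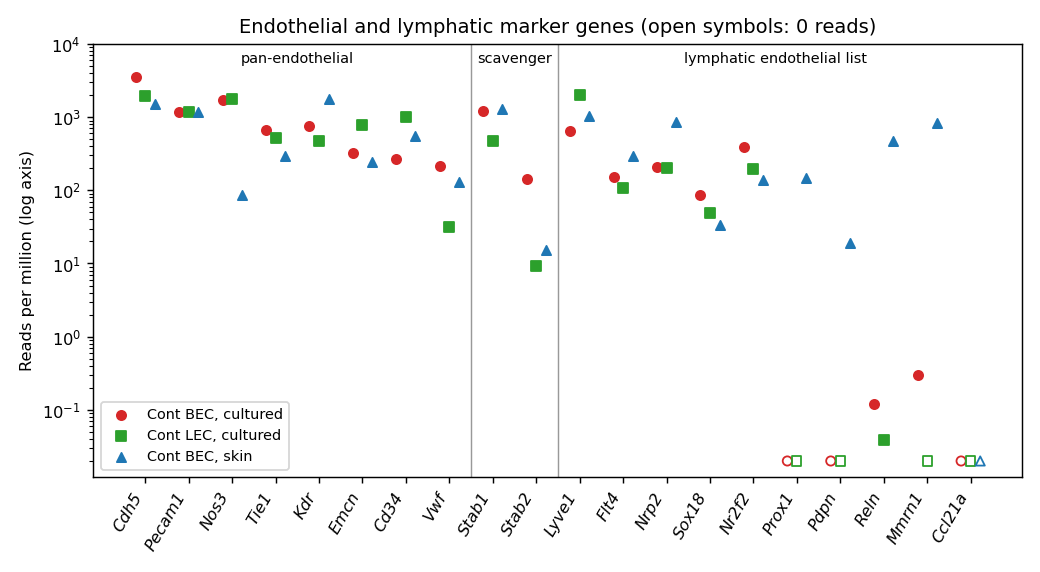
CPM (log axis) of 20 endothelial, scavenger and lymphatic genes in 1 library each of cultured Cont BECs, cultured Cont LECs and skin Cont BECs, with open symbols at the bottom for 0 reads. Nos3 is drawn with the pan-endothelial genes but is not a member of that list. Pan-endothelial genes were present in all 3 libraries, while Prox1 and Pdpn were at 0 in both cultures and had 148 and 18.95 CPM in the skin library.

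The lymphatic genes that were present are also expressed by other ECs. Lyve1 had 10680 reads (642 CPM) in Cont BECs and 52184 reads (1999 CPM) in Cont LECs, a log2 ratio of 1.64 (1.61 to 1.67). It was the only gene of the list called, and the ratio in the OE pair was 0.72. In bulk RNA, fewer cells with a transcript and less transcript per cell cannot be told apart. Flt4 had 153 and 107 CPM (log2 ratio -0.52), the co-receptor Nrp2 had 209 and 200 CPM, and the transcription factor Sox18 had 86.3 and 49.1 CPM. The venous and lymphatic factor Nr2f2 had 387 and 198 CPM, and the scavenger receptor Stab1 had 1207 and 475 CPM. Of the 8 list members, 7 had ratios below 0, and the median was -0.55 against 0.09 over all genes.

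The defining markers of other cell types were mostly at or near 0 in both cultures, with a few list members well above it. Of 17 fibroblast genes, 8 had no read in either, among them Col1a2, Dcn and Lum, and the list summed to 7.87 and 12.8 CPM against 3974 CPM in the skin library. The macrophage genes Adgre1, C1qa, C1qb and C1qc, the keratinocyte genes Krt5 and Krt14, and the globin genes of the list, apart from 2 reads of Hbb-y in Cont LECs, had no reads. Of 17 visceral endoderm genes of the yolk sac, Ttr, Apoa4, Rbp4 and Hnf4a had none, while Afp, a fetal plasma protein, had 41 reads in Cont BECs and 288 in Cont LECs. Among the members with more reads, the macrophage list held the lysosomal protein Cd68, with 1093 and 2435 reads (65.7 and 93.3 CPM, against 61.6 CPM in the skin library). The pericyte and smooth muscle list summed to 654 and 554 CPM against 1364 CPM in the skin library, nearly all of it from Mcam, an adhesion molecule that ECs also make, with 10770 and 14316 reads. The keratin gene Krt10 had 98 and 172 reads, and the mesothelial gene Msln had 47 and 2750. The part of other cells in the differences between the cultures was not tested.

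The cultures were alike in most genes. Of the 12079 genes, 9490 (78.6%) lay within 2-fold of each other, and the middle 90% of log2 ratios ran from -1.74 to 1.32. The OE pair had 81.9% of its genes within 2-fold, and the 2 libraries of the same line had 90.8% (Cont BECs and OE-BECs) and 96.4% (Cont LECs and OE-LECs). Against the skin Cont BECs, only 55.1% of genes were within 2-fold for cultured Cont BECs and 48.9% for Cont LECs. More than 3-fold differences between the control cultures covered 1027 genes (8.5% of all tested), of which 342 (2.83%) were higher in Cont LECs and 685 (5.67%) in Cont BECs. The nearest genes to the threshold were Pnma1 (46 and 24 reads, 3.01-fold) inside and Nsdhl (335 and 1575 reads, 2.997-fold) outside.

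The 2 directions differed in size. Of the genes higher in Cont BECs, 218 exceeded 10-fold and 58 exceeded 100-fold. Of those higher in Cont LECs, 27 exceeded 10-fold and none exceeded 100-fold. The whole interval lay past 3-fold for 446 and 172 genes, and the median count in the higher library was 104 and 410 reads, so many genes called higher in Cont BECs were low in both libraries. No read in the other library was found for 49 genes higher in Cont BECs and 12 higher in Cont LECs. The latter were led by the cadherin gene Cdh6 (0 and 100 reads, at least 21.3-fold higher in Cont LECs, and 0 and 141 reads in the OE pair) and the calcium channel gene Cacna1b (0 and 76 reads, at least 16.2-fold higher).

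**Figure D2:**
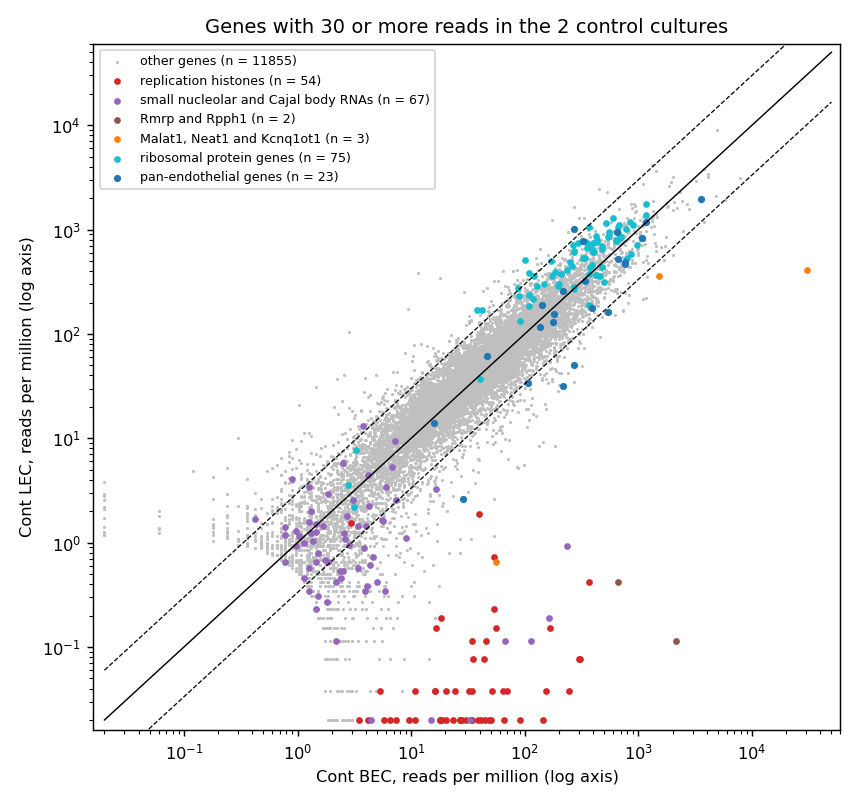
CPM (log axes) of all 12079 genes in Cont BECs (horizontal) and Cont LECs (vertical), with gene classes in colour, the solid line at equal levels and the dashed lines at 3-fold. A gene with 0 reads in a library is drawn at 0.02. Replication histones lie far below the lower dashed line, except Hist2h2be, while 17 of 23 pan-endothelial and 70 of 75 ribosomal protein genes lie between the dashed lines.

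The largest differences were in RNAs that lack a poly(A) tail or stay in the nucleus. The histone genes of the replication clusters, whose mRNAs end in a stem-loop in place of a poly(A) tail, were called higher in Cont BECs for 53 of 54 members, beside 5.67% of all genes called in that direction. Their median log2 ratio was -8.32, against 0.09 over all genes, and their summed level was 3132 CPM in Cont BECs and 6.70 CPM in Cont LECs. Hist2h2be was the member not called, with 49 and 40 reads. Of the 54 genes, 26 had no read in Cont LECs and 19 had 1 to 3. These 26 and 19 genes passed the read minimum almost only through Cont BECs. That filter fixed their calls in advance, so the share called is no test of the class. The list held 68 genes, and those under the minimum were left out. The OE pair gave 4123 and 7.32 CPM, and the skin Cont BECs had 2910 CPM.

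The linker histone Hist1h1c had 6064 reads in Cont BECs and 11 in Cont LECs (log2 ratio -9.76, -10.8 to -8.92). Hist1h1e had 5113 and 2 reads (log2 ratio -12.0, -15.0 to -10.1), and Hist1h1d had 4981 and 2. The core histone Hist2h2ac had 2401 and 0 reads, at least 1255-fold higher in Cont BECs. The replacement histones, whose mRNAs carry poly(A) tails and which are made outside S phase, did not share this difference. None of the 6 was called, beside 8.5% of all genes, which is too few members to compare with that share. Their ratios lay between -0.09 and 1.43, with a median of 0.29. H3f3b had 5674 and 13708 reads and H2afz 1833 and 7732.

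The stem-loop sites of 6 of these histone genes are shown, because this element sets their mRNAs apart from those of the replacement histones. Capitals mark the loop and both stem arms, lower case the 5 bases on either side, and positions are on mm10 (GENCODE M21 transcripts).
Hist1h1c, chr13:23739507-23739532, plus strand: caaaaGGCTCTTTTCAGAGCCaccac
Hist1h1d, chr13:23555782-23555807, plus strand: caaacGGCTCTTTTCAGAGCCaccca
Hist1h1e, chr13:23621777-23621802, minus strand: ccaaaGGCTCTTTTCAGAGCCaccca
Hist1h4d, chr13:23581945-23581970, plus strand: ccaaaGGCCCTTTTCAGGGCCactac
Hist2h2ac, chr3:96220413-96220438, minus strand: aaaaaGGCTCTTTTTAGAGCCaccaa
Hist4h4, chr6:136803993-136804018, minus strand: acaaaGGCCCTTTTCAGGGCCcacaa

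The arms of the linker histone genes read GGCTCT and AGAGCC, and those of both H4 genes GGCCCT and AGGGCC, so that the arms pair in each. The motif searched on the transcript strand was GG, 3 bases of any kind, TT, any base, T, any base, A, 3 bases of any kind and CC, with the last 6 letters the reverse complement of the first 6. It was found in the annotated transcripts of 37 of the 54 histone genes, in none of the 6 replacement histones and in 12 of 11090 other protein-coding genes (0.108%). No match says only that these letters are not in the annotated transcript. Of the 17 histone genes without a match, all but Hist2h2be were also called higher in Cont BECs. The annotated transcripts of the 6 genes shown run on past the motif, by 57 bases (Hist2h2ac) to 4884 bases (Hist1h1d). Of the 54 genes, 46 lie on chromosome 13 and 6 on chromosome 3.

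Some noncoding RNAs without a poly(A) tail or held in the nucleus were also higher in Cont BECs. Rpph1, the RNA of ribonuclease P, had 35700 reads in Cont BECs and 3 in Cont LECs (log2 ratio -14.2, -16.5 to -12.6), and Rmrp, the RNA of ribonuclease MRP, had 11030 and 11. Malat1, a nuclear long noncoding RNA, took 3.03% of Cont BEC reads (503660) and 0.0414% of Cont LEC reads (10811), a log2 ratio of -6.19 (-6.22 to -6.16). Neat1, the scaffold RNA of paraspeckles, had 25323 and 9387 reads (log2 ratio -2.08). Kcnq1ot1, an imprinted antisense RNA, had 934 and 17 reads, and it overlaps Kcnq1, so without stated strand use in the counting the genes may share reads. Of 67 small nucleolar and Cajal body RNAs, 28 were higher in Cont BECs, 3 were higher in Cont LECs and 36 were not called. Their median was -1.31, and 5.67% and 2.83% of all genes were called in these directions. These noncoding RNA classes and the replication histones made up 3.86% of reads in Cont BECs and 0.0889% in Cont LECs. All 3 long noncoding RNAs and both ribonuclease RNAs were also called in the OE pair.

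These classes account for 51 of the 58 genes over 100-fold higher in Cont BECs and for 63 of the 104 over 30-fold, but for only 86 of all 685 called. Without them, 599 genes (5.01%) remained higher in Cont BECs and 339 (2.84%) in Cont LECs.

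The ratio also followed transcript length. Among 11090 protein-coding genes other than these histones, the median log2 ratio went from 0.43 in the shortest 10%, with a median exon length of 1462 bases, to -0.40 in the longest 10%, at 12556 bases. Spearman's correlation across genes was -0.28, with both libraries shared by all points and genes not independent of each other. The OE pair ran from 0.42 to -0.35 over the same groups. Across GC content the correlation was -0.048. Ribosomal protein genes, which are short, had a median of 0.70. Of 75, 5 were called higher in Cont LECs and none in Cont BECs, beside 2.83% and 5.67% of all genes. The part of poly(A) status was not tested for any difference between the cultures, those of the histones and noncoding RNAs included. When each ratio was centred on genes of like length, 618 of 661 genes higher in Cont BECs and 221 of 330 genes higher in Cont LECs with a known length were still past 3-fold.

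**Figure D3:**
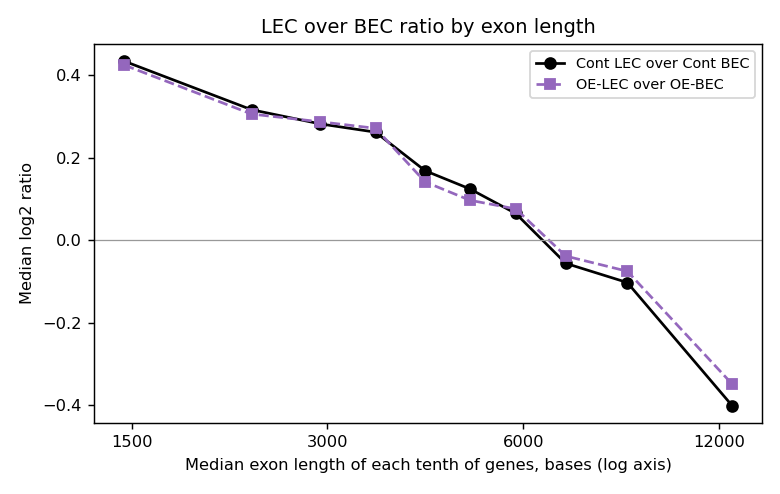
Median log2 ratio of LECs over BECs in 10 groups of 11090 protein-coding genes ordered by exon length (log axis), for the control pair and the OE pair. Both lines fall steadily, from 0.43 and 0.42 in the shortest group to -0.40 and -0.35 in the longest.

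Among vascular genes, the endothelial ones called were mostly higher in Cont BECs. Of the 23 pan-endothelial genes, 5 were higher in Cont BECs, 1 was higher in Cont LECs and 17 were not called, beside 5.67% and 2.83% of all genes called in these directions, with a median of -0.35. Vwf, the platelet-binding clotting glycoprotein, had 3606 reads in Cont BECs and 824 in Cont LECs (log2 ratio -2.78, -2.89 to -2.67), and 610 and 260 in the OE pair (-2.55). Clec14a, an endothelial surface lectin, had 4499 and 1311 reads (-2.43) and the matrix protein gene Mmrn2 had 472 and 69 (-3.42). Both stayed past 3-fold in the OE pair. The angiopoietin receptor Tek (1768 and 893 reads) and the phosphatase Ptprb (8996 and 4239) were called in the control pair only, at -1.63 and -1.74. Cd34, a surface sialomucin, was the gene higher in Cont LECs, with 4491 and 26370 reads (1.90, 1.86 to 1.95), but it was not called in the OE pair (1.28).

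Most transcription factors of ECs had ratios on the Cont BEC side, though few were called. Of 27 members, 25 were not called and 2 were higher in Cont BECs, beside 5.67% of all genes called in that direction. Ratios were below 0 for 22 of the 27, in the control pair and in the OE pair alike. The median was -0.52, against 0.09 over all genes, and -0.43 in the OE pair. Erg, Ets1 and Tal1 lay between -0.23 and 0.38. Epas1, the hypoxia-inducible factor of ECs, had 3343 and 846 reads (-2.63) and the homeobox gene Hlx had 2102 and 424 (-2.96). In the OE pair they had ratios of -1.31 and -1.42. All 14 arterial and Notch members had ratios below 0. Of these, 3 were called, with few reads each, beside 5.67% of all genes higher in Cont BECs. Gja5, an arterial connexin, had 38 and 3 reads (-4.31, -6.65 to -2.66), the Notch target Hey1 had 51 and 8 and the kinase gene Bmx had 123 and 20. In the OE pair 7 of these 14 were above 0 and none was called. The Notch receptors Notch1 (-0.87) and Notch4 (-0.46) and the ligand Dll4 (-1.31) were not called.

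Of the VEGF and angiopoietin genes, 2 of 14 were called in each direction. Over all genes, 2.83% were called higher in Cont LECs and 5.67% in Cont BECs. The ligand gene Apln, whose peptide acts on the receptor Aplnr, had 4489 reads in Cont BECs and 42534 in Cont LECs (2.59, 2.55 to 2.64), while Aplnr had no read in either. In the OE pair Apln had 12191 and 39581 reads (0.38). Ccbe1, a factor needed to activate VEGF-C, had 356 and 2253 reads (2.01), and Vegfc had 0 and 1. The VEGF receptor Flt1 had 5099 and 2151 reads (-1.89), whereas Kdr, the main VEGF receptor of blood ECs, had 12755 and 12180 (-0.72).

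Capillary and sinusoidal genes went in both directions. Stab2, a hyaluronan scavenger receptor of sinusoids, had 2412 reads in Cont BECs and 242 in Cont LECs (-3.97, -4.16 to -3.78), and 114 and 40 in the OE pair (-2.83). The water channel Aqp1 had 2232 and 218 reads (-4.01) but 60 and 112 in the OE pair (-0.42). The surface proteins Ly6a (2901 and 31944 reads, 2.81) and Ly6c1 (887 and 8480 reads, 2.61) were higher in Cont LECs, and both kept this in the OE pair (2.69 and 2.15). Reads that related members of this gene family share may be split between them. Cav1, the coat protein of caveolae, had 2285 and 17067 reads (2.25).

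Matrix genes were called more often than genes in general. Calls among junction and integrin genes were too few to compare with the share of all genes. Of 17 junction members 2 were called, beside 8.5% of all genes, and the immunoglobulin-family adhesion gene Jam2 had 19513 and 5758 reads (-2.41). Of 13 integrins, Itga1 alone was called (2564 and 1103 reads, -1.87), beside the same 8.5%. The basement membrane collagens Col4a1 and Col4a2 had ratios of -0.03 and 0.12. Of 29 matrix members, 5 were called in each direction, beside 2.83% of all genes higher in Cont LECs and 5.67% in Cont BECs, and 4 of these 10 were also called in the OE pair. Nid1, a basement membrane linker, was the second most abundant gene of Cont LECs by reads, with 108419 against 21959 (1.65, 1.63 to 1.68), but it was not called in the OE pair (0.60). The phosphoprotein Spp1 had 2124 and 12339 reads (1.89) and the protease inhibitor Timp1 had 135 and 825 (1.96), and both were called in the OE pair. The collagenase Mmp13 had 1 and 32 reads (4.35, 1.77 to 9.70). Fbln2, an elastic fibre protein, had 1628 and 145 reads (-4.14), but 112 and 311 in the OE pair (0.15). In RPKM, the level per 1000 bases of exon and 1000000 reads, Nid1 had 190 in Cont BECs and 598 in Cont LECs, and the intermediate filament gene Vim had 857 and 672.

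Leukocyte adhesion and chemokine genes leaned to Cont LECs. Of 16 leukocyte adhesion and chemokine members, 5 were higher in Cont LECs and none in Cont BECs, beside 2.83% of all genes called in that direction, with a median of 1.29. The monocyte attractant Ccl2 had 2335 and 12515 reads (1.77), the colony stimulating factor Csf1 had 1113 and 7532 (2.11), and the chemokines Cxcl2 and Cxcl12 had 125 and 1117 (2.51) and 873 and 4890 (1.84). The median was 0.78 in the OE pair, where none of these 4 was called. Clotting and vasoactive genes were called in both directions, with 3 of 17 members higher in Cont LECs and 2 in Cont BECs and a median of 0.60. Over all genes these shares were 2.83% and 5.67%. Tissue factor, F3, had 14 and 109 reads (2.31) and the matrix glycoprotein Thbs1 had 1176 and 5644 (1.61). Those higher in Cont BECs were Vwf, given above, and the endothelin receptor Ednrb, with 13428 and 5216 reads (-2.01).

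**Figure D4:**
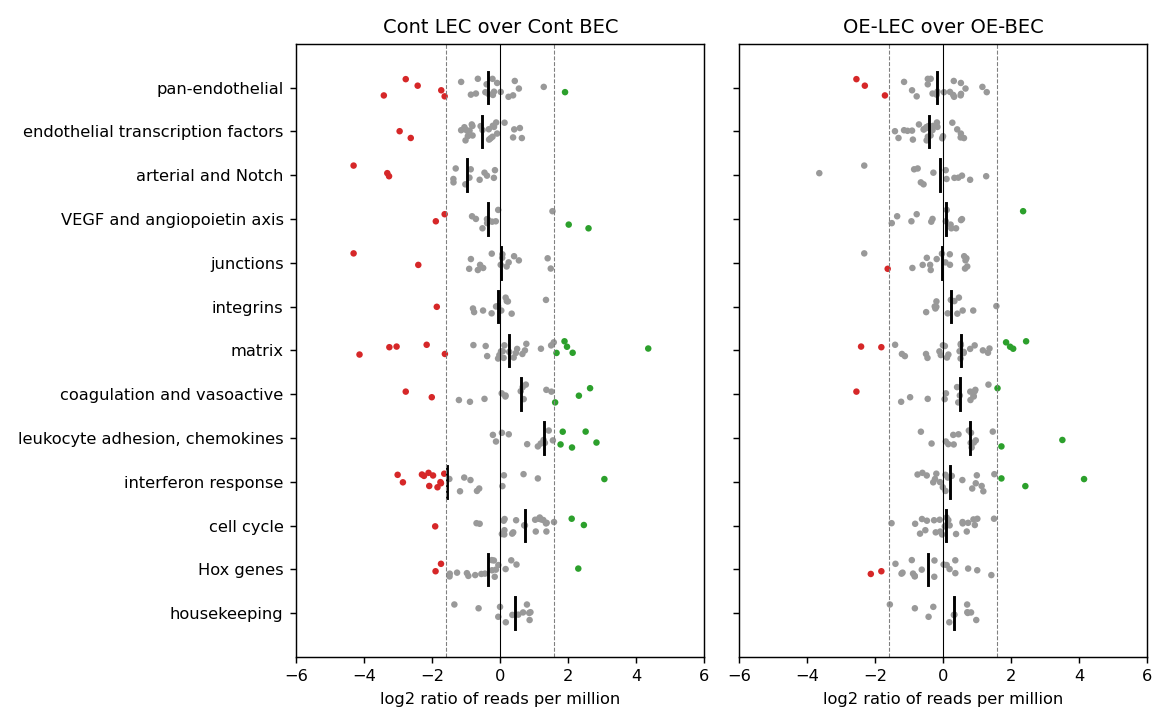
Log2 ratios of LECs over BECs for members of 13 gene lists in the control pair (left) and the OE pair (right), with green and red for genes more than 3-fold higher in LECs and BECs, black bars at medians and dashed lines at 3-fold. The interferon list had a median of -1.57 on the left and 0.20 on the right.

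Interferon response genes were mostly higher in Cont BECs in the control pair but not in the OE pair, a difference between the pairs that was not tested. Of 22 members, 11 were higher in Cont BECs and 1 in Cont LECs, beside 5.67% and 2.83% of all genes, with a median of -1.57. Ifit1, an antiviral RNA-binding protein, had 1745 reads in Cont BECs and 338 in Cont LECs (-3.02, -3.19 to -2.85), Ifit3 had 1799 and 388 (-2.86), and Oasl2 had 2672 and 886 (-2.24). Oasl1 went the other way with 11 and 144 reads (3.06). In the OE pair Ifit1 had 940 and 2461 reads (0.07), none of the members was higher in OE-BECs by more than 3-fold, and 3 were higher in OE-LECs. The summed level was 2302 CPM in Cont BECs, 1156 in Cont LECs, 2250 in OE-BECs and 3079 in OE-LECs, so the lowest of the 4 was Cont LECs.

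Cell cycle genes were mostly a little higher in Cont LECs. Of 25 members, 22 had ratios above 0, with a median of 0.72, against 0.09 in the OE pair. The calls were 2 higher in Cont LECs and 1 in Cont BECs, beside 2.83% and 5.67% of all genes. Ccnd1, the G1 cyclin, had 7472 and 64396 reads (2.46, 2.42 to 2.49), and Rrm2, a ribonucleotide reductase subunit of S phase, had 2073 and 13941 (2.10). Ccnd2 had 1436 and 598 reads (-1.91). The S phase genes Mcm2 (0.12) and Mcm6 (0.10) and the proliferation marker Mki67 (-0.70) were not called, beside the median of -8.32 for the replication histones. The p53 target and cell cycle inhibitor Cdkn1a had 2159 and 10723 reads (1.66), and 1850 and 14780 in the OE pair (1.68).

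The Hox genes, which mark the body level a cell came from, held too few calls to compare with the share of all genes. Of 39 Hox genes, 16 had no read in either culture and 20 were members, of which 3 were called, beside 8.5% of all genes. Ratios were below 0 for 16 of the 20, with a median of -0.35. Hoxb8 had 1232 and 1859 reads (-0.06), Hoxb7 had 995 and 1371 (-0.19), Hoxd8 had 1227 and 2408 (0.32) and Hoxd10 had 339 and 475 (-0.16). All 9 Hoxc genes of the list were at 0 in both cultures, whereas the skin library had 39 reads of Hoxc4 and 63 of Hoxc8. Hoxb9 was the gene called higher in Cont LECs, with 13 and 100 reads (2.29, 1.45 to 3.25). Hoxa7 (317 and 133 reads, -1.90) and Hoxa2 (32 and 15 reads) were called higher in Cont BECs. The limb and heart factors Tbx5, Tbx20 and Nkx2-5 and the dermal factor En1 had no read in either culture, and Tbx2, a T-box repressor, had 182 and 34 (-3.07). The Y-linked genes Ddx3y (2689 and 2697 reads), Kdm5d, Eif2s3y and Uty were present in both cultures, while Xist had 0 and 3 reads.

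Imprinted genes, expressed from 1 parental allele, had 4 of 13 members higher in Cont BECs, beside 5.67% of all genes, and 1 of the 4 was Kcnq1ot1, given above among the nuclear RNAs. The fetal growth factor Igf2 had 282 and 39 reads (-3.50, -4.03 to -3.02) and 10 and 20 in the OE pair (-0.32), and the zinc finger gene Plagl1 had 310 and 59 (-3.04). The tyrosine kinase Fes, a human copy of which the yolk sac line is known to carry, had 3018 and 2740 reads (-0.79), and 61.7 CPM in the skin library against 181 and 105 CPM here. Whether reads of a human copy were counted on the mouse gene was not tested. Dot1l itself had 1972 and 2490 reads (-0.31). None of the 10 members of its complex list was called, beside 8.5% of all genes. Of 12 housekeeping genes none was called, beside the same 8.5%. Actb had 131741 and 81082 reads (-1.35) and Gapdh 15449 and 43730 (0.85).

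Protein-coding genes other than the replication histones, with at least 50 CPM in the higher library, were also ranked by ratio, list members included. The protocadherin gene Pcdh18 led those higher in Cont BECs, with 894 and 30 reads in the control pair (-5.55, -6.12 to -5.02) and 539 and 29 in the OE pair (-5.54). Agpat2, an enzyme of phospholipid and triglyceride synthesis, had 1445 and 135 reads (-4.07) and 1587 and 320 in the OE pair (-3.63). Aldh1a7, an aldehyde dehydrogenase, had 1421 and 139 reads (-4.00) and 82 and 137 in the OE pair (-0.58). The transcription factor gene Zfhx3 had 4555 and 905 (-2.98) and 3797 and 1325 (-2.84). C3, the central complement protein, had 2551 and 493 (-3.02) and 463 and 592 in the OE pair (-0.97). The 15 genes so ranked ended with Ifit3 at -2.86.

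Msln, a surface protein of mesothelium, led those higher in Cont LECs, with 47 and 2750 reads (5.22, 4.81 to 5.67) in the control pair and 945 and 14395 in the OE pair (2.61). The other mesothelial genes were at or near 0, with 1 and 0 reads of Wt1 and none of Upk3b. Fbp2, the muscle fructose-bisphosphatase of gluconeogenesis, had 191 and 10037 reads (5.07, 4.86 to 5.28) and 96 and 10497 in the OE pair (5.45). Adam22, a non-catalytic member of the ADAM family, had 156 and 4551 (4.22) and 214 and 7894 (3.88). BC018473, annotated as antisense on chromosome 11 (116752167 to 116759373), had 301 and 8894 reads (4.24), and reads of an overlapping gene could not be told apart from its own. Rhag, an ammonium channel protein of red cells, had 148 and 1723 (2.89). The growth factor Ereg had 173 and 1607 (2.57) and the cytokine receptor Tnfrsf12a 720 and 6800 (2.59). The 15 genes so ranked ended with the transporter gene Slco4a1 at 2.47. By number of reads, Cont LECs were led by Eef1a1, Nid1 and Eef2, and Cont BECs by Malat1, Actb and Igfbp3.

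Signalling and regulator lists differed in how many members were called, beside 8.5% of all genes. Of 20 BMP and TGF-beta members 4 were called. The ligand Bmp4 (276 and 1602 reads, 1.89) and the TGF-beta binding protein Ltbp1 (1.99) were higher in Cont LECs, and the ligands Tgfb2 (-2.22) and Tgfb3 (1239 and 371 reads, -2.39) in Cont BECs. The receptors Acvrl1 (-0.72), Eng (0.24) and Tgfbr2 (0.03) were not called. None of the 8 members of the hemogenic and hematopoietic list was called, with the stem cell factor receptor Kit at 7018 and 5756 reads and the blood regulator Runx1 at 144 and 404, while Gata1, Myb and Etv2 had no read. None of the 13 antigen presentation members was called. Of 15 members of the endothelial to mesenchymal transition list, 3 were higher in Cont LECs, among them S100a4, a calcium-binding protein of motile cells (47 and 508 reads, 2.78), and 1 in Cont BECs. Snai1, Snai2, Zeb1 and Zeb2, which repress epithelial and endothelial genes, lay between -0.71 and 0.49, and Acta2, a smooth muscle actin, had 7 and 2 reads. Of 6 venous members, the ectonucleotidase gene Nt5e was called, with 22 and 187 reads (2.44), and the venous Eph receptor Ephb4 had a ratio of -0.60.

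The published YAP/TAZ target genes, which respond to cell spreading and density, were called in both directions. Of 19 members, 7 were higher in Cont LECs and 2 in Cont BECs, beside 2.83% and 5.67% of all genes, with a median of 0.06. Of these 9, 3 were also called in the OE pair. Ctgf had 961 and 8384 reads (2.48), Cyr61 1174 and 7348 (1.996) and Ankrd1 35 and 517 (3.24), while Igfbp3 had 97087 and 50568 (-1.59) and Tgfb2 149 and 50 (-2.22). In the OE pair Ctgf had 2573 and 12111 reads (0.91), Cyr61 3199 and 7242 (-0.14) and Ankrd1 407 and 937 (-0.12). The receptor kinase Axl, with 14 and 176 reads (3.003), had 123 and 1249 in the OE pair (2.02).

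Most of the line difference had the same direction in the OE pair. Of the 342 genes higher in Cont LECs, 324 had a ratio above 0 there and 134 (39.2%) were past 3-fold, which is 43.4% of the 309 genes higher in OE-LECs. Of the 685 genes higher in Cont BECs, 634 had a ratio below 0 and 356 (52.0%) were past 3-fold, which is 64.5% of the 552 genes higher in OE-BECs. The OE pair called 861 of its 12096 genes (7.12%), 2.55% and 4.56% in these directions. The opposite direction was found for 18 and 45 of them, and 6 of those higher in Cont BECs had no ratio there. Among protein-coding genes with at least 50 CPM, 31 of 93 higher in Cont LECs and 36 of 115 higher in Cont BECs were past 3-fold in the OE pair, and 29 and 45 lay within 2-fold there. Of the called genes given above without an OE value, S100a4, Nt5e, Oasl1, Hoxa7, Tgfb2, Rhag, Tnfrsf12a, BC018473 and Cacna1b were past 3-fold there in the same direction. Cav1, Ccbe1, Flt1, Jam2, Itga1, Mmp13, Hoxb9, Hoxa2, Tbx2, Plagl1, Ccnd1, Rrm2, Bmp4, Ltbp1, Tgfb3, Ereg, Slco4a1, Igfbp3, F3, Thbs1 and Ednrb were not.

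**Figure D5:**
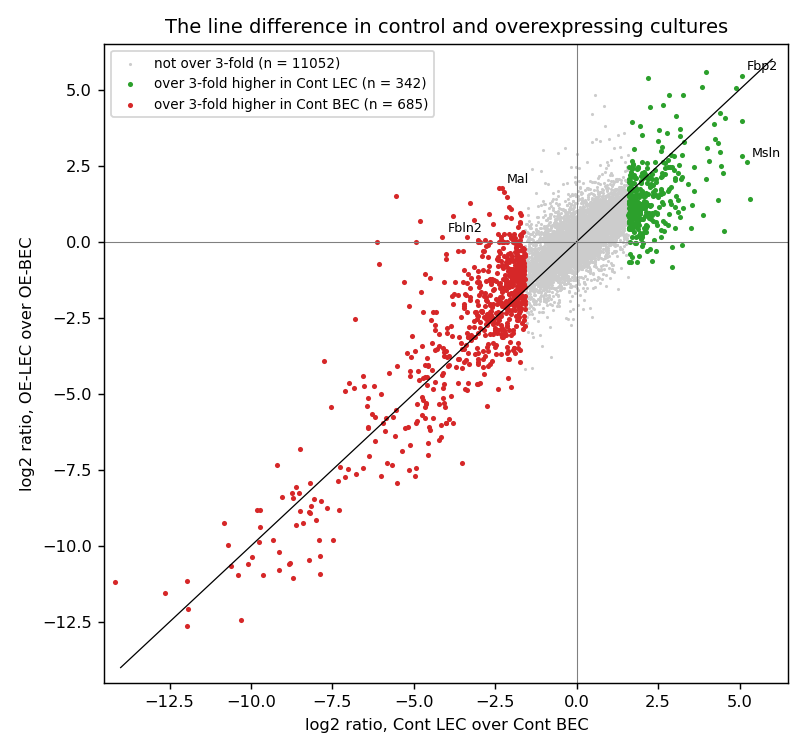
Log2 ratio of LECs over BECs in the control pair (horizontal) and the OE pair (vertical) for the 12079 genes, with genes past 3-fold in the control pair in green (higher in Cont LECs) and red (higher in Cont BECs) and the line at equal ratios. Most coloured genes keep their side of 0, while Fbln2 lies near 0 and Mal above 0 on the vertical axis.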

How the data were processed

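Per the labels and the study's methods, the authors made libraries from total RNA with the ScriptSeq v2 kit, trimmed adapters with skewer, aligned reads to mm10 with STAR and counted reads per gene with VERSE. They deposited raw counts for 24421 gene symbols, 1 column per library. The counts were used as deposited, and the control columns of both cultured lines made the comparison. The methods name the -S option of VERSE but do not say what it sets, so whether counting used strand is not known here.

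CPM was computed on totals without Rn45s. Log2 ratios had exact Clopper-Pearson 95% intervals, a gene at 0 in 1 library was bounded against a floor of 3 reads, and genes were called over 3-fold. With 1 library per group no test was run. Gene positions, types and exon lengths came from GENCODE M21 (96.4% of members matched). Genes named were members of 34 lists, the 15 largest ratios per direction at 50 CPM or more, the 10 most abundant genes per library and every Hox gene with 30 reads. Members and lists were chosen with earlier results of these data known. The histone, ribosomal protein, small RNA, long noncoding and YAP/TAZ lists, the ranking of protein-coding genes, the length centring and totals without the nonpolyadenylated classes were added after the data were examined. Alternatives used DESeq2 1.42.0 and edgeR 4.0.16 scaling in R 4.3.3. Python 3.11.15 was used otherwise, and the steps were tested on simulated data. Some results are not reported here.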

Additional observations from a re-analysis of the deposited data

Results flagged for a closer look

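A pair of genes differed by more than 3-fold between the lines in opposite directions in the control and OE pairs. Crisp1, a secreted cysteine-rich protein gene, had 310 reads in Cont BECs and 103 in Cont LECs (log2 ratio -2.24), but 17 in OE-BECs and 133 in OE-LECs (1.65). Mal, a membrane raft protein gene, had 82 and 26 reads in the control pair (-2.31) and 4 and 34 in the OE pair (1.77). The interferon response list had a median log2 ratio of -1.57 in the control pair and 0.20 in the OE pair. Each of these differences between the pairs was not tested, since each library is 1 sample.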

How the results depend on the processing

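The counts of 342 and 685 genes (higher in Cont LECs and in Cont BECs) stayed within 1.5 times under DESeq2 size factors, TMM factors, totals with Rn45s, the OE libraries, length centring and totals without the nonpolyadenylated classes. A 2-fold call gave 1264 and 1325, a 10-fold call 27 and 218, and the whole interval past 3-fold 172 and 446. Genes higher in Cont BECs numbered 1170, 376 and 1662 with a minimum of 10, 100 or 1 reads, so that this count depends on genes of few reads. The share within 2-fold was 74.4%, 81.6% and 74.1% under these minimums, 81.9% in the OE pair and 80.9% after length centring. The pan-endothelial median was -0.26 with Rn45s in the totals, -0.17 in the OE pair and -0.51 after length centring. In the OE pair the lymphatic median was -0.13 and the interferon median 0.20. The ratio changed sign in the OE pair for 18 and 45 called genes, of which those in the lists or named were Crisp1 and Mal, given above, Bmx (1.26, from 2 and 12 reads), Ankrd1 (-0.12), Ccnd2 (0.048), Cxcl12 (-0.66), Cyr61 (-0.14), Fbln2 (0.15), Ifi44 (0.96), Ifit1 (0.068), Nuak2 (-0.32), Oas2 (1.13), Oasl2 (0.25) and Tgfb3 (0.0014). The cause of these sign changes in the OE pair was not tested. DESeq2, TMM, Rn45s in the totals and leaving out the nonpolyadenylated classes each moved the median of all genes by less than 0.1. Each of these scalings shifts every ratio of the control pair alike. They could not change the sign of a gene called over 3-fold, so the kept signs are no test of the calls. After length centring, 333 named or listed genes left their counting interval and 274 stayed inside it. No paired analysis was possible because each group has 1 library.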
